A study of Homo sapiens with 6 samples.

Results

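The MYC transcription factor network and the factors that build ribosomes were followed in the human prostate cancer line LNCaP, with and without knockdown of prostate-specific membrane antigen (PSMA, encoded by FOLH1). With earlier results of these data known, a list of 49 genes was chosen as members. Of these, 39 were tested on the array, 1 (MXD1) lay under the filter on low signal, 4 had only probe sets paired with several gene symbols, and 5 (NOP58, NOB1, GNL3, EBNA1BP2 and DDX18) were not analysed here. The tested members are 39 of the 9241 genes tested in all.

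The control group, LNCaP_untreated, comprised 3 arrays of LNCaP cells grown in RPMI without treatment. The group LNCaP_PSMAknockdown comprised 3 arrays of LNCaP cells transduced with a retroviral shRNA (microRNA-embedded format) against PSMA and grown in the same medium. An empty vector in the controls, the clonal or pooled origin of the knockdown cells and separate cultures behind the arrays are not given in the labels, so the p-values cover only array-to-array spread, which may be technical.

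MYC is a transcription factor that binds DNA as a dimer with MAX, at E-boxes of the form CACGTG, and the MXD proteins and MXI1 compete with it for MAX. Ribosome building starts in the nucleolus, where RNA polymerase I transcribes the ribosomal RNA precursor. Small nucleolar ribonucleoproteins (snoRNPs) then modify the precursor, and separate sets of assembly factors fold and trim the small and the large subunit. Genes for these factors are among the best known targets of MYC, and prostate cancer cells are known for enlarged nucleoli.

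The promoters are shown first because the E-box is the sequence that ties the MYC network to its targets. RefSeq promoters of GRCh38.p14 (250 bases before to 50 bases after the annotated start, 300 bases in all) were matched for 40 of the 49 members. The letters CACGTG, which read the same on both strands, occurred in 15 of these 40 (37.5%), against 10.4% of the 7540 promoters matched to tested genes and 7.26% of all 35116 promoters of the table. The variant CACGCG, searched on both strands and counted separately, occurred in 9 of the 40 (22.5%), against 17.6% of promoters of tested genes. The promoters of FBL, NOP14 and MRTO4 held both CACGTG and CACGCG. The median GC content of the members' promoters was 63.8%, against 65.0% for tested genes. A match is a description of letters in this window and not evidence that a factor binds there.

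The 4 promoters that follow belong to the members with CACGTG whose expression differed most between knockdown and control cells, with CACGTG in capitals. WDR43 is at chr2:28894417-28894716 (plus strand), BYSL at chr6:41921249-41921548 (plus strand), WDR46 at chr6:33289190-33289489 (minus strand) and NOP2 at chr12:6568242-6568541 (minus strand), all in GRCh38.p14.
WDR43: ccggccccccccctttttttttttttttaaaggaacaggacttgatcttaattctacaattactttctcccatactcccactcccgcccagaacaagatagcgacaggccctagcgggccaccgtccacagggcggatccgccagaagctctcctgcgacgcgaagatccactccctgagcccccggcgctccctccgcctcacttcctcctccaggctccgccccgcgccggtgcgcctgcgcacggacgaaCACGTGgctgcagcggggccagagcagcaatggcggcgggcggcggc
BYSL: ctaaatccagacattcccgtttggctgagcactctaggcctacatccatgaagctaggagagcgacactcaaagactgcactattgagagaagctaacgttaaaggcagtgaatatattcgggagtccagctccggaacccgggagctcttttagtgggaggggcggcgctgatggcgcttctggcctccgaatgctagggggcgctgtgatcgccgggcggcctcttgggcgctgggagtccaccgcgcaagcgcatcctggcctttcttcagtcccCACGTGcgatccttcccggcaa
WDR46: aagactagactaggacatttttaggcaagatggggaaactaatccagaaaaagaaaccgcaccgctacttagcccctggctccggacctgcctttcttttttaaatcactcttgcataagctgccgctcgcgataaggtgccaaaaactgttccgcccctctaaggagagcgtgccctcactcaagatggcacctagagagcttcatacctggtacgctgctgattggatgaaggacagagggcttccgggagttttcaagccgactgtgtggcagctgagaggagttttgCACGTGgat
NOP2: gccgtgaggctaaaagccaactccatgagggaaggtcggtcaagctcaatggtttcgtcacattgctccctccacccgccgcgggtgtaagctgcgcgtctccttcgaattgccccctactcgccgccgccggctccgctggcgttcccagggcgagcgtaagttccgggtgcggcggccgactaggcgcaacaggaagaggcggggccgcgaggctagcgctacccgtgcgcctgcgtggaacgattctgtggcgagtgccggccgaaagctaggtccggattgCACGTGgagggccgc
In each of these 4 the E-box lay just after the start, beginning 3, 28, 41 and 35 bases past it in the order shown, with the start base counted as 0. For comparison, the 2 members that rose most without holding CACGTG are POLR1C at chr6:43516839-43517138 (plus strand) and CAD at chr2:27217119-27217418 (plus strand). The POLR1C window holds CACGCG at position -21.
POLR1C: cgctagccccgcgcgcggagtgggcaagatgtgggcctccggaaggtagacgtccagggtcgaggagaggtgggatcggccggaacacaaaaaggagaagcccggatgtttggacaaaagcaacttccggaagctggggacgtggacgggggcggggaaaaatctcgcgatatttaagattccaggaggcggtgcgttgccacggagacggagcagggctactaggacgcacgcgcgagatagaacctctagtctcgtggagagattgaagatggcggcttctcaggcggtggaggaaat
CAD: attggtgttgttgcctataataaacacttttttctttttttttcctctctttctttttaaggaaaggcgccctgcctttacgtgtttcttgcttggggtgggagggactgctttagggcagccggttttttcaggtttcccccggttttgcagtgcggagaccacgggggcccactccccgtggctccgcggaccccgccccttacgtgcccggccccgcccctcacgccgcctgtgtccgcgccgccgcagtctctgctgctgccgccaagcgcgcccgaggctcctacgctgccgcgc

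The E-boxes of the other members clustered at the same place. In 11 of the 40 promoters (27.5%) a CACGTG began between 0 and 44 bases past the start, which was the case in 1.34% of promoters of tested genes. This window was chosen after the positions were seen. Position 44 is the last at which CACGTG fits in the 50 bases scanned after the start, so E-boxes further downstream were not looked for. FBL, PES1, MRTO4, NOP14, GNL2, UTP18 and IMP4 were the other members with an E-box in it. RRP9 and UTP20 had theirs at positions -5 and -10, just before the start, and EBNA1BP2 and MXD4 only far upstream. An E-box was held by 5 of the 11 promoters of members that rose (45.5%) and by 8 of the 22 of tested members that did not (36.4%), so it was found on both sides of the threshold.

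**Figure D1:**
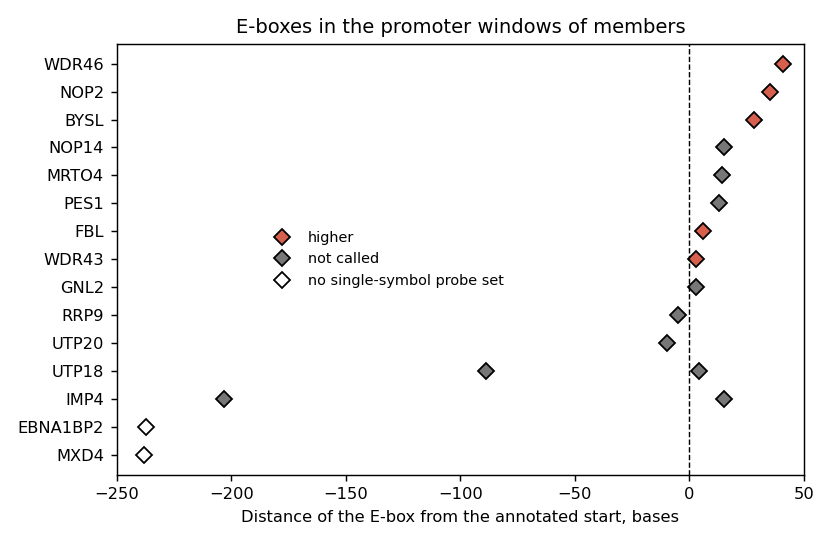
Distance of each CACGTG from the annotated start, in bases (horizontal axis), for the 15 members whose promoter window holds it (rows); red marks members higher in knockdown cells, grey those not called and white those without a single-symbol probe set. Most of the E-boxes found sit past the start, where only 50 bases were scanned, for members that rose and for members that did not.

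The comparison asks how transcript levels differ in cells with reduced PSMA. Of the 39 tested members, 13 rose and 1 fell in knockdown cells at a limma adjusted p under 0.05. The share that rose was 33.3%, and 19.4% of all genes tested rose. The share that fell was 2.56%, and 16.5% of all genes tested fell. The list was chosen with earlier results of these data known, so these shares are a description. All changes were small: the rises ran from 1.17-fold (TCOF1) to 1.57-fold (POLR1C), and the fall, in NIP7, was 1.22-fold. The median difference over the 39 members was 0.12 on the log2 scale (knockdown minus control), and 0.03 over all genes. Knockdown arrays did not overlap control arrays for 21 members on the higher side and 6 on the lower side, where 27.0% and 22.4% of all genes did so. Of the 13 rises 8 were of 25% or more, as were 907 of the 1793 rises over all genes. Set against all genes tested, these were 8 of 39 members and 907 of 9241 genes (9.81%). The median over the members, set against the control mean of each gene, was 0.10, 0.12 and 0.09 in the 3 knockdown arrays, so no single knockdown array carried it.

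**Figure D2:**
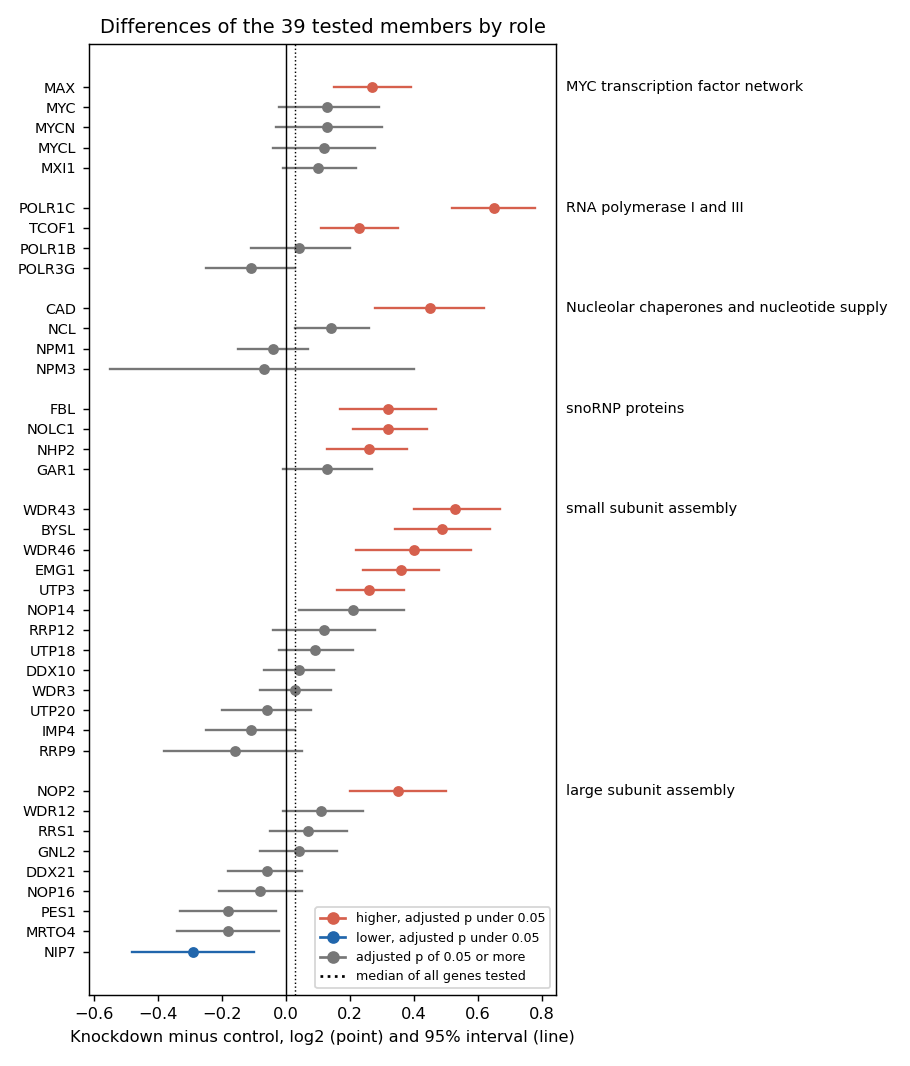
Knockdown minus control difference on the log2 scale (point) with its 95% interval (line) for each of the 39 tested members, grouped by role; red is higher and blue lower at adjusted p under 0.05, and the dotted line is the median of all genes tested (0.03). The snoRNP proteins all lie above 0, whereas the large subunit factors lie on both sides of it.

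Several measures of array quality and cell content moved with the groups or were checked beside these results. The target was lower in every knockdown array: the 3 bright probe sets shared by FOLH1 and its copy FOLH1B differed by -2.72 to -2.23 on the log2 scale, and their means in knockdown cells were still 7.82 or more. The dimmer probe set named for FOLH1 alone went from 6.38 ± 0.05 to 5.59 ± 0.40 (log2, SD, n = 3), a difference of -0.79 (limma adjusted p over probe sets = 0.0123). Of the luminal prostate markers, 7 of 9 were on the array as single-symbol probe sets and all 7, such as KLK3, KLK2, KRT8 and KRT18, passed the filter in these cells. Among them KLK3 fell (-0.71) and KLK2 rose (0.41). Their summed intensity was 5020 to 5410 in control and 4860 to 5480 in knockdown arrays. The summed basal, leukocyte and endothelial markers reached at most 78.9 in any array. The basal marker KRT5, the leukocyte markers CD3E and ITGAM and the endothelial markers PECAM1 and VWF passed the filter. Their control means ran from 4.06 (PECAM1) to 5.39 (VWF) on the log2 scale. The others of these lists on the array, KRT14, KRT15, PTPRC, CD14, CDH5 and KDR, lay under the filter level. The fibroblast list summed to 153 to 164 in control and 181 to 211 in knockdown arrays. In it COL3A1 rose (log2 difference 1.01), whereas COL1A1 (0.02) and DCN (0.11) did not pass the test. COL1A2 and LUM lay under the filter. The 18 hybridisation control probe sets averaged 11.34 ± 0.08 in control and 10.51 ± 0.13 in knockdown arrays (log2, SD, n = 3). The 5′ signal relative to the 3′ signal of 6 control transcripts was lower in knockdown arrays, with differences from -0.97 (dap) to -0.10 (GAPDH) on the log2 scale. The hybridisation and the 6 ratio differences each reached p = 0.1 in an exact permutation test, two-sided, the smallest that 3 arrays against 3 allow. The handling of the arrays and the group cannot be told apart, and the part of these controls and of the fibroblast list in the results that follow was not tested.

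Of the 5 tested genes of the MYC network only MAX rose, on its brightest probe set, and MYC did not pass the test. MYC measured 11.19, 11.16 and 11.16 in the control arrays and 11.39, 11.35 and 11.17 in the knockdown arrays (log2 intensity). The third knockdown array sat at the control level and the other two above it. The difference was 0.13 (95% interval -0.02 to 0.29, limma adjusted p = 0.155). Without knockdown replicate 3 it was 0.20, with an adjusted p of 0.0231. MYCL and MYCN, the relatives of MYC used in neuroendocrine and embryonic tissues, lay near the filter level of log2 4. MYCL measured 5.09, 4.95 and 4.93 in control and 5.04, 5.21 and 5.08 in knockdown arrays, and the groups overlapped, with a difference of 0.12 (95% interval -0.04 to 0.28). MYCN measured 4.83, 5.05 and 5.01 in control and 5.06, 5.06 and 5.18 in knockdown arrays. Its groups met without overlapping, with a difference of 0.13 (95% interval -0.03 to 0.30), and neither gene passed. The other MYCN probe sets differed by -0.01 and -0.03, and the mean of its probe sets by 0.03. Without control replicate 1 MYCN differed by 0.07, and without knockdown replicate 2 MYCL differed by 0.07.

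MAX, the dimer partner of every protein in the network, measured 9.36, 9.27 and 9.31 in control and 9.59, 9.61 and 9.53 in knockdown arrays on its brightest probe set. All knockdown arrays were above all control arrays, and the difference was 0.27 (SE 0.05, limma adjusted p = 0.00596). The other 4 probe sets of MAX did not follow it together. Tested one by one over all 15852 probe sets past the filter, of which 16.6% rose and 17.8% fell, 1 of the 4 differed by 0.45 (limma adjusted p = 0.0104). Another differed by -0.49 (limma adjusted p = 0.00129), another by -0.29 (limma adjusted p = 0.0336), and the last by -0.02 (limma adjusted p = 0.858). With the mean of its 5 probe sets MAX differed by -0.02 (adjusted p = 0.799), so the direction for MAX depends on the probe set.

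Among the antagonists of MYC, only a probe set of MXD4 passed. MXI1 measured 10.07, 10.11 and 10.01 in control and 10.17, 10.15 and 10.17 in knockdown arrays, a difference of 0.10 (95% interval -0.01 to 0.22, limma adjusted p = 0.152). The arrays did not overlap, but the difference did not pass. MXD1 lay under the filter, with 3.26, 3.15 and 3.33 in control and 3.33, 3.51 and 3.36 in knockdown arrays. MXD4 was measured by 3 probe sets that also carry the name of a microRNA gene, with differences of 0.07, 0.18 and 0.30. The last of these measured 6.31, 6.30 and 6.39 in control and 6.61, 6.67 and 6.62 in knockdown arrays and passed (limma adjusted p over probe sets = 0.0042), whereas the arrays of the other two overlapped. These measured 7.97, 7.91 and 7.80 against 8.08, 7.91 and 7.89, and 7.35, 7.11 and 7.19 against 7.52, 7.27 and 7.41.

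Among the RNA polymerase genes, the subunit shared by polymerases I and III had the largest rise of all members. POLR1C measured 8.41, 8.50 and 8.55 in control and 9.12, 9.16 and 9.13 in knockdown arrays. The groups were far apart beside their spread, with a difference of 0.65 (SE 0.05, limma adjusted p = 0.000147). Its other probe set rose by 0.48 (limma adjusted p over probe sets = 0.00192). TCOF1 encodes treacle, a nucleolar protein needed for ribosomal RNA transcription. It measured 7.47, 7.37 and 7.47 in control and 7.67, 7.63 and 7.70 in knockdown arrays, a rise of 0.23 (SE 0.05, limma adjusted p = 0.013). The call rested on control replicate 2, without which the difference was 0.20 with an adjusted p of 0.0514, and the mean of its probe sets gave 0.14 (adjusted p = 0.0538). Its other probe set differed by 0.05. POLR1B, the second largest subunit of polymerase I, differed by 0.04 and the polymerase III subunit POLR3G by -0.11, and neither passed. The other probe set of POLR3G measured 5.15, 4.96 and 5.08 in control and 4.72, 4.67 and 4.86 in knockdown arrays and fell by 0.31 (limma adjusted p over probe sets = 0.0138). With the mean of both POLR3G differed by -0.21 (limma adjusted p = 0.0267).

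The nucleolar chaperones did not pass, whereas CAD did. CAD is the enzyme that carries out the opening steps of pyrimidine synthesis. It measured 7.66, 7.70 and 7.65 in control and 8.24, 8.14 and 7.97 in knockdown arrays. The lowest knockdown array still stood clear of the highest control array, and the difference was 0.45 (SE 0.07, limma adjusted p = 0.00299). Nucleolin (NCL) measured 12.07, 12.09 and 12.16 in control and 12.23, 12.26 and 12.26 in knockdown arrays. Its arrays did not overlap, and its difference of 0.14 had an adjusted p of 0.0566. Nucleophosmin (NPM1) differed by -0.04 (95% interval -0.15 to 0.07) on its brightest probe set and by -0.06 and -0.02 on the others. NPM3, a relative of NPM1, measured 8.16, 8.2 and 8.95 in control and 8.40, 8.50 and 8.18 in knockdown arrays. Control replicate 3 stood apart from the other two, and without it the difference changed from -0.07 to 0.18 (adjusted p = 0.205).

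Of the 4 tested snoRNP proteins 3 rose, where 19.4% of all genes did, with a median difference of 0.29. The count is of few genes, and it rests in part on NOLC1, whose call depends on the probe set. FBL (fibrillarin), the methyltransferase of the box C/D snoRNPs, measured 11.56, 11.48 and 11.52 in control and 11.87, 11.94 and 11.72 in knockdown arrays. Every knockdown array was above every control array, by a mean of 0.32 (SE 0.07, limma adjusted p = 0.00775). NHP2, a core protein of the box H/ACA snoRNPs that guide pseudouridylation, measured 12.25, 12.22 and 12.24 in control and 12.55, 12.51 and 12.42 in knockdown arrays. The control arrays lay within 0.03 of each other, and the rise was 0.26 (SE 0.05, limma adjusted p = 0.00794). GAR1, another H/ACA core protein, measured 9.39, 9.27 and 9.41 in control and 9.54, 9.51 and 9.42 in knockdown arrays, a difference of 0.13 that did not pass (95% interval -0.01 to 0.27).

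NOLC1, a nucleolar phosphoprotein that accompanies snoRNPs, measured 11.28, 11.31 and 11.32 in control and 11.67, 11.62 and 11.58 in knockdown arrays on its brightest probe set, a rise of 0.32 (SE 0.05, limma adjusted p = 0.00198). Its second probe set rose by 0.19 (limma adjusted p over probe sets = 0.0271), but the dimmest fell by 0.53 (limma adjusted p over probe sets = 0.0133). With the mean of the 3 probe sets the difference was -0.01 (adjusted p = 0.936).

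Probe sets of other snoRNP genes also lay on both sides of 0. DKC1, the pseudouridine synthase dyskerin, was measured only by probe sets that also carry the names of small RNAs hosted in the gene. The brightest measured 10.86, 10.94 and 10.92 in control and 11.27, 11.26 and 11.12 in knockdown arrays and rose by 0.31 (limma adjusted p over probe sets = 0.00646). The dimmest measured 9.29, 9.29 and 9.04 in control and 8.82, 8.72 and 8.85 in knockdown arrays and fell by 0.41 (limma adjusted p over probe sets = 0.00741). For NOP56, a core box C/D protein, the brighter probe set differed by 0.13 and the dimmer by -0.29, and neither passed. Among members with several probe sets past the filter, the dimmest lay lower in knockdown cells in NOLC1, DKC1, NOP56 and POLR3G (-0.31). It lay higher in MAX (0.45), NOP16 (0.30), MXD4 (0.30), POLR1C (0.48), MYCL (0.19), BOP1 (0.12) and TCOF1 (0.05). In MYCN, NPM1 and RRP12 it differed by -0.04 to -0.01. The dimmer probe sets of POLR1C and TCOF1 rose less than the brighter ones, and other dimmer ones of MAX differed by -0.49 and -0.29. The control transcripts' 5′ signal was lower in these arrays, and the positions of these probe sets along the transcripts were not used here, and the part of that difference was not tested.

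**Figure D3:**
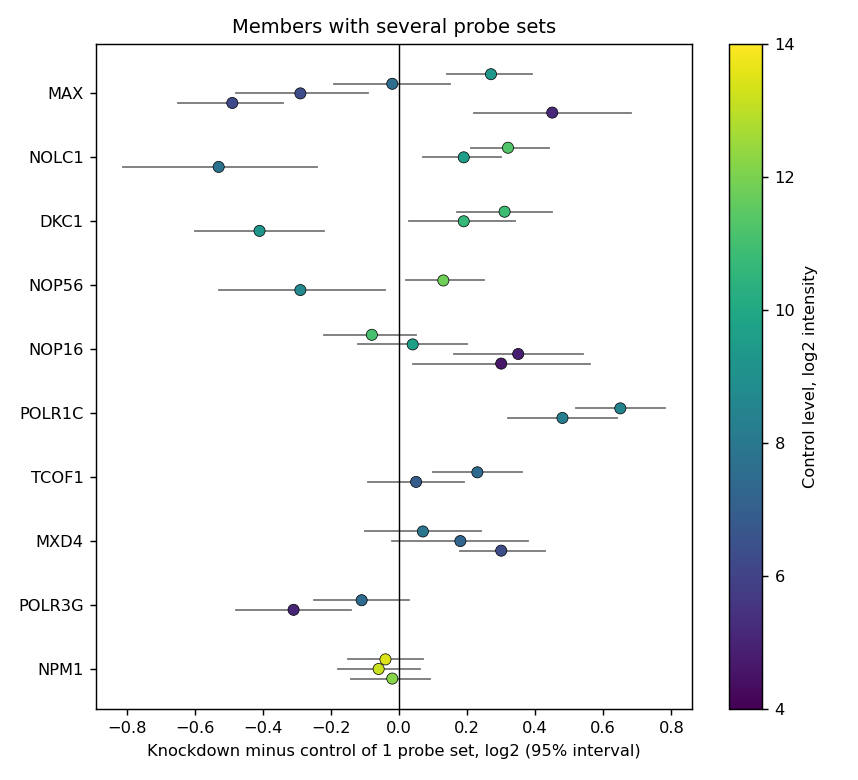
Knockdown minus control difference (log2, point) with its 95% interval (line) of each probe set past the filter for 10 members with several; the colour gives the probe set's control level (log2 intensity). MAX, NOLC1, DKC1, NOP56 and NOP16 have probe sets on both sides of 0, whereas both probe sets of POLR1C lie above it and all 3 of NPM1 close to it.

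Of the 13 tested small subunit factors, 5 rose and 0 fell by limma, where 19.4% of all genes rose and 16.5% fell, with a median difference of 0.12. At an unadjusted p under 0.05 limma put 0 of the 13 and 20.9% of all genes lower. WDR43, a component of the subcomplex that joins transcription of ribosomal RNA to its processing, measured 9.21, 9.17 and 9.28 in control and 9.67, 9.78 and 9.81 in knockdown arrays. The groups stood clear of each other, and the rise was 0.53 (SE 0.06, limma adjusted p = 0.000509). BYSL (bystin), which acts in late steps of small subunit maturation, measured 8.63, 8.72 and 8.65 in control and 9.27, 9.15 and 9.07 in knockdown arrays. Its rise was 0.49 (SE 0.06, limma adjusted p = 0.00106). WDR46, a scaffold of the small subunit processome, measured 7.74, 7.65 and 7.45 in control and 7.99, 8.05 and 8 in knockdown arrays. Its control arrays were more spread than its knockdown arrays, and the rise was 0.40 (SE 0.08, limma adjusted p = 0.00644).

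EMG1, a methyltransferase acting on the small subunit's ribosomal RNA, measured 10.62, 10.58 and 10.63 in control and 11.02, 10.99 and 10.90 in knockdown arrays, a rise of 0.36 (SE 0.05, limma adjusted p = 0.00179). UTP3, a further processome protein, measured 10.02, 10.04 and 10.01 in control and 10.26, 10.29 and 10.31 in knockdown arrays, a rise of 0.26 (SE 0.05, limma adjusted p = 0.00382). In both genes each group lay within a narrow band and the bands did not touch. NOP14, another processome member, measured 8.74, 8.76 and 8.74 in control and 9.06, 8.98 and 8.81 in knockdown arrays. Its arrays did not overlap, but its difference of 0.21 had an adjusted p of 0.0549, and 0.28 with an adjusted p of 0.0106 without knockdown replicate 3. The other 7 tested factors (RRP12, UTP18, DDX10, WDR3, UTP20, IMP4 and RRP9) did not pass, with differences from -0.16 (RRP9) to 0.12 (RRP12).

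Of the 9 tested large subunit factors, 1 rose and 1 fell (11.1% each), where 19.4% of all genes rose and 16.5% fell. Their median difference was -0.06. Whether the roles differ from each other was not tested. NOP2, a methyltransferase acting on the large subunit's ribosomal RNA, measured 8.44, 8.45 and 8.48 in control and 8.93, 8.80 and 8.71 in knockdown arrays. All knockdown arrays were higher, by a mean of 0.35 (SE 0.06, limma adjusted p = 0.00452). NIP7, which takes part in processing of the ribosomal RNA precursor, measured 8.92, 8.86 and 9.11 in control and 8.60, 8.63 and 8.80 in knockdown arrays. It fell by 0.29 (SE 0.08, limma adjusted p = 0.03), and the highest knockdown array came close to the lowest control array. The adjusted p of NIP7 was 0.0553 without control replicate 1, 0.0757 without control replicate 3, 0.0975 without knockdown replicate 1 and 0.0962 without knockdown replicate 2. Its differences in these 4 fits ran from -0.31 to -0.22.

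PES1, BOP1 and WDR12 form a complex needed to process the large subunit's ribosomal RNA. PES1 measured 8.50, 8.42 and 8.38 in control and 8.36, 8.21 and 8.19 in knockdown arrays, and WDR12 measured 9.67, 9.75 and 9.76 in control and 9.90, 9.81 and 9.80 in knockdown arrays. The arrays of neither gene overlapped between groups, PES1 being lower (-0.18, limma adjusted p = 0.0641) and WDR12 higher (0.11, limma adjusted p = 0.144), and neither passed. The 2 probe sets of BOP1, which also carry the name of a microRNA gene, differed by 0.13 and 0.12 and did not pass. MRTO4 (-0.18), the helicase DDX21 (-0.06), the GTPase GNL2 (0.04) and RRS1 (0.07) did not pass either. NOP16 differed by -0.08 on its brightest probe set, which did not pass, and its other 3 lay the other way. One of them measured 4.98, 4.84 and 4.72 in control and 5.31, 5.14 and 5.14 in knockdown arrays and rose by 0.35 (limma adjusted p over probe sets = 0.0139), and the others differed by 0.30 and 0.04 and did not pass. With the mean of its 4 probe sets NOP16 differed by 0.15 (limma adjusted p = 0.0498), so its direction depends on the probe set.

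**Figure D4:**
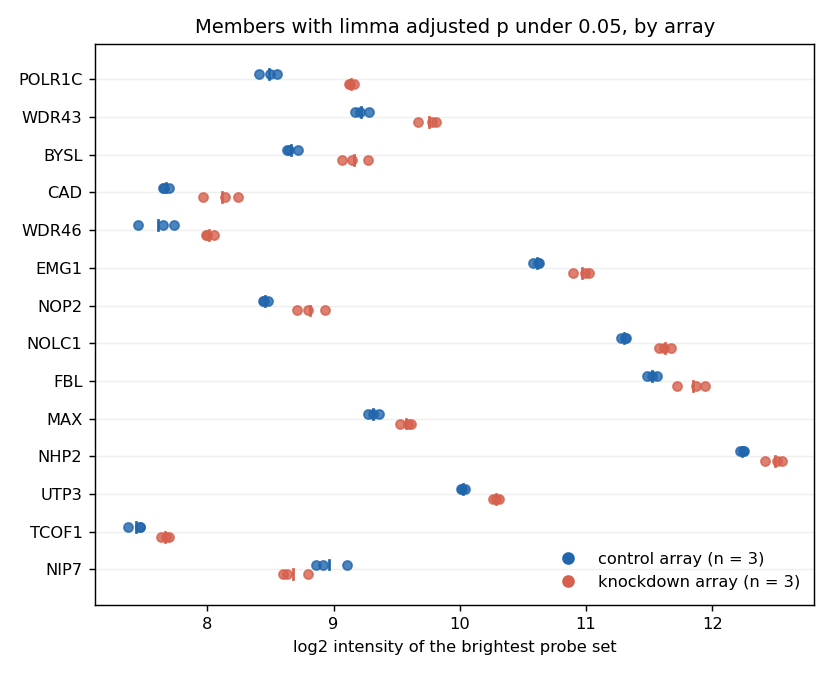
log2 intensity of the brightest probe set in each of the 6 arrays (points; short lines are group means) for the 14 members with adjusted p under 0.05, ordered by difference. Every knockdown array (red) lies above every control array (blue) except for NIP7, where every knockdown array lies below.

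The 5 largest rises lay on 2 chromosomes. By RefSeq annotation POLR1C, BYSL and WDR46 lie on chromosome 6 and CAD and WDR43 on chromosome 2. On chromosome 6, 39.3% of the 504 measured genes rose, with a median difference of 0.14. The 3 members on that chromosome differed by 0.51 (POLR1C), 0.35 (BYSL) and 0.26 (WDR46) after subtraction of the chromosome median. Of the 36 tested members elsewhere, 10 rose (27.8%) and 1 fell (2.78%). Of all genes tested, those on chromosome 6 included, 19.4% rose and 16.5% fell.

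Close neighbours of these 5 genes moved with them. The 20 nearest measured genes (10 on each side) had a median difference of 0.25 around POLR1C, 0.21 around BYSL, 0.23 around WDR46, 0.32 around WDR43 and 0.21 around CAD. These neighbours rose in 12, 9, 10, 14 and 8 of 20 cases, in the same order, and 0 fell by limma, with 0 also lower at an unadjusted p under 0.05. Of all genes tested, 19.4% rose and 16.5% fell by limma, and 20.9% were lower at an unadjusted p under 0.05. A neighbour median of 0.21 or more was found for 4.16% of all genes tested. That cut-off is the lowest median of these 5 genes themselves, so all 5 reach it by construction. The 5 sets of neighbours shared no gene within a chromosome. With the neighbour median subtracted, the differences were 0.40 (POLR1C), 0.29 (BYSL), 0.17 (WDR46), 0.21 (WDR43) and 0.23 (CAD). MYCN, also on chromosome 2, had a neighbour median of 0.28, above its own difference of 0.13. Around the other 8 members that rose, neighbour medians ran from -0.09 to 0.12. With these subtracted, NHP2 went from 0.26 to 0.27, EMG1 from 0.36 to 0.40, FBL from 0.32 to 0.37 and NOLC1 from 0.32 to 0.28. UTP3, whose neighbours fell in 9 of 20 cases and rose in 6, went from 0.26 to 0.35. NOP2 went from 0.35 to 0.24, TCOF1 from 0.23 to 0.16 and MAX from 0.27 to 0.14. NIP7, the member that fell, lay on chromosome 16 among neighbours of which 9 of 20 fell and 1 rose, with a median of -0.17. The part of the neighbourhood in these differences was not tested.

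**Figure D5:**
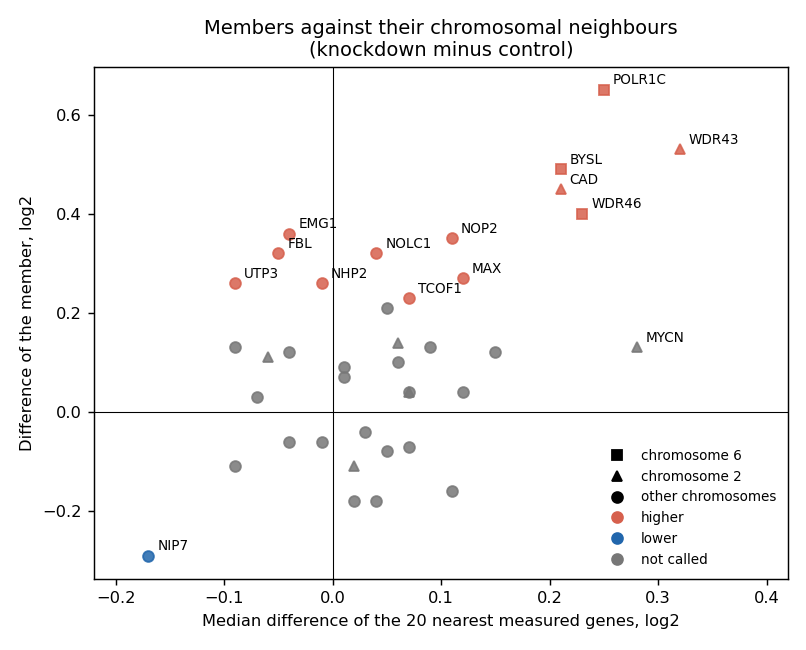
Difference of each tested member (vertical axis, log2, knockdown minus control) against the median difference of its 20 nearest measured genes (horizontal axis, log2); squares are chromosome 6, triangles chromosome 2 and circles other chromosomes. POLR1C, WDR43, BYSL, CAD and WDR46 sit at the upper right with neighbour medians of 0.21 to 0.32. EMG1, FBL, UTP3, NHP2 and NOLC1 rose among neighbours with medians of -0.09 (UTP3) to 0.04 (NOLC1).

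Other genes of the same pathways moved both ways. Of 213 further genes in 8 lists, 173 were tested, of which 43 rose (24.9%) and 25 fell (14.5%), near the 19.4% and 16.5% of all genes, with a median difference of 0.04. In the polymerase I machinery 4 of 15 rose and 5 fell, the falls led by 2 initiation factors. TAF1B went from 6.13 ± 0.07 to 5.33 ± 0.22 (log2, SD, n = 3), a difference of -0.80 (limma adjusted p = 0.00123), and RRN3 from 9.66 ± 0.04 to 8.92 ± 0.10, a difference of -0.74 (limma adjusted p = 0.000166). The subunits POLR2H (0.32) and POLR1E (0.31) rose. In the polymerase III machinery 2 of 15 rose, GTF3C2 (0.22) and POLR3C (0.21), and 3 fell, among them GTF3A (-0.50), the factor that starts 5S RNA transcription, and POLR3K (-0.36). The median over chromosome 13, where GTF3A lies, was -0.27.

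The counts that follow stand beside the 19.4% of all genes that rose and the 16.5% that fell. Further snoRNP genes included 3 rises and 2 falls in 10, with the assembly factors ZNHIT3 (0.38) and RUVBL2 (0.29) higher and NUFIP1 (-0.23) and SNU13 (-0.21), a box C/D core protein, lower. NUFIP1 also lies on chromosome 13 and differed by no more than that chromosome's median of -0.27. Of 34 further small subunit factors 6 rose (17.6%), led by PDCD11 (0.42) and PWP2 (0.39, on chromosome 21 with a median of 0.18), and 5 fell (14.7%), led by FCF1 (-0.92) and ESF1 (-0.81). FCF1 lay near the filter level of log2 4 with a wide spread. It went from 5.23 ± 0.30 to 4.31 ± 0.51 (log2, SD, n = 3, limma adjusted p = 0.0248). Of 50 further large subunit factors 15 rose (30.0%) and 3 fell (6%). Of the 9 tested large subunit members 1 rose and 1 fell, which is too few genes for a contrast, and none was tested. RRP1B, the largest of the 15 rises, rose by 0.68 and also lies on chromosome 21. EIF6, which keeps the large subunit from joining the small one too early, rose by 0.65, while NMD3, the export adaptor of the large subunit, fell by 0.37 and BRIX1 by 0.25. Of 20 tested nuclease genes of ribosomal RNA processing 5 rose, led by the RNase P subunit RPP30 (0.53) and ISG20L2 (0.41), and 3 fell, including the exosome nuclease DIS3 (-0.31, on chromosome 13 with a median of -0.27) and the exosome core protein EXOSC2 (-0.27). In nucleotide synthesis 6 of 19 rose, led by thymidylate synthase (TYMS, 0.48) and the purine enzyme GART (0.44, on chromosome 21), and 3 fell, including PRPS1 (-0.36) and DHODH (-0.33). In the wider MYC and MLX network 2 of 10 rose, MGA (0.35) and MLXIP (0.28), and HUWE1, a ubiquitin ligase that acts on MYC, fell by 0.17. The HUWE1 value comes from 1 _x_at probe set with a control mean of 13.57 (log2), and other probe sets of HUWE1 were not compared.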

How the data were processed

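Gene expression was measured on 1-colour Affymetrix arrays, 3 per group, from Trizol-extracted total RNA, per the labels' protocols. The values are probe set intensities on a linear scale (3.82 to 22631), which the authors deposited after GCRMA, per the submitters' processing notes; the version is not given in the sources used here. Arrays carry no read depth, and their number limits the precision.

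Probe sets were named from the platform annotation. Intensities were log2-transformed. Single-symbol probe sets with at least 3 of 6 arrays at log2 4 or more (an intensity of 16) were kept, and the one with the highest mean stood for its gene, leaving 9241 genes. Knockdown was compared with control by limma 3.58.1 in R 4.3.3 (lmFit, then eBayes). The p-values were adjusted by the Benjamini-Hochberg method across the genes tested, and for single probe sets across the 15852 past the filter. Groups came from the sample titles.

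Members, role groups and pathway lists were chosen with earlier results of these data known. Values in all arrays are given for every member with an adjusted p under 0.05, the MYC network and the member with the largest difference in each role; other members were given array values after their values were seen. In the pathway lists up to 2 of the largest called changes per direction are named. Counts are described beside those of all genes, with no set test. RefSeq tables (GRCh38.p14) gave promoters, chromosomes and gene order. Alternatives covered the filter, low values, scaling, probe set choice, variance model, array weights, the replicate number, thresholds, chromosome position and leaving out arrays.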

Additional observations from a re-analysis of the deposited data

How the results depend on the processing

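The count of 13 members higher was 10 to 18 under the alternatives of filter, floor, scaling, probe set choice, variance model, array weights and replicate number, and 12 to 15 when 1 array was left out. It was 8 when a change of 25% higher or 20% lower was also required. Without that size requirement, all 13 were shared in every one of these fits except with the mean of a gene's probe sets (10 shared), without _x_at and _s_at probe sets (10 shared, 25 members tested) and without control replicate 2 (12 shared, TCOF1 lost). With array weights 18 members rose, among them MYC and MYCL. The single fall became 3 with the mean filter, with log2(intensity + 16) and with an intensity trend, 2 with the mean of probe sets, with array weights and with the replicate block, and 0 with low values raised to 4, with arrays centred, without _x_at and _s_at probe sets, with the size threshold and at an adjusted p under 0.01; leaving out 1 array gave 0 to 1, with 0 without control replicate 1, control replicate 3 or knockdown replicate 2. At an unadjusted p under 0.05 limma put 3 members (7.69%) and 20.9% of all genes lower, and 1 to 4 members under these alternatives. The members' median of 0.12 was 0.10 with log2(intensity + 16), with the mean of probe sets and with array weights, 0.15 with arrays centred, 0.07 minus the chromosome median and 0.08 minus the neighbour median, an alternative chosen after seeing the data, and 0.10 to 0.13 when 1 array was left out. Of the other ribosome biogenesis genes 14 rose and 11 fell with the size threshold, 25 and 10 at an adjusted p under 0.01, 13 fell without _x_at and _s_at probe sets, and 32 to 42 rose and 15 to 21 fell when 1 array was left out (15 without knockdown replicate 2). Over all genes the counts of 1793 and 1526 were 1089 and 918 without _x_at and _s_at probe sets, 907 and 915 with the size threshold and 1002 and 901 at an adjusted p under 0.01. Signs turned for MAX (-0.02), NOLC1 (-0.01) and NOP16 (0.15) with the mean of probe sets, for NOP16 (0.04) without _x_at and _s_at probe sets, for MYCN (-0.14) minus the neighbour median, and for NPM3 with array weights (0.12), without control replicate 3 (0.18) and without knockdown replicate 3 (0.02), with -0.21 to 0.18 when 1 array was left out. They also turned, to between -0.08 and -0.01 under 1 or more alternatives, for POLR1B, DDX10, GNL2 and RRP12, none of them called. POLR3G was called lower with the mean of probe sets. The cause of these shifts was not tested. With the replicate block the same 13 members rose. Deviations of same-numbered arrays correlated at 0.11, 0 and 0.18, so not every pair was over 0.1 and the arrays were not treated as paired; replicates 1 and 3 correlated best with their own number, as a hint from the data, and replicate 2 did not. Shared cultures or days are not given in the labels.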
